A study of Rattus norvegicus with 18 samples.

Results

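The urea cycle and the breakdown of amino acids were described in cultured rat hepatocytes through 10 genes, chosen by symbol: Cps1, Otc, Ass1, Asl, Arg1, Gls2, Tat, Hpd, Tdo2 and Bckdhb. They are 10 of 21574 genes tested. Each was read by 1 probe, matched through its accession, and each probe lay well above background on all 18 arrays. The cells were cryopreserved primary hepatocytes of male Sprague Dawley rats, precultured for 24 h. They were then exposed for 24 h to DDMB, CDMB, CDEB or DDEB, each at 300 µM, or to the solvent DMSO. DDMB, CDMB and CDEB were set against the DMSO group VC_1 and DDEB against the DMSO group VC_2, as the series' design text assigns them because of different chip lots. There were 3 arrays per group, described as independent experiments. The title names p-dialkoxy chlorobenzenes, and the labels give the compounds by code only. The labels do not say whether the cultures came from different animals, so a p-value here covers only the spread among the cultures measured. Neither the age of the animals nor a pooling of donors is given in the sources used here.

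Hepatocytes turn the ammonia released from amino acids into urea. Carbamoyl phosphate synthetase (Cps1) and ornithine transcarbamylase (Otc) work in mitochondria, and argininosuccinate synthetase (Ass1), argininosuccinate lyase (Asl) and arginase (Arg1) complete the cycle in the cytosol. The liver glutaminase (Gls2) releases ammonia from glutamine. Tat, tyrosine aminotransferase, and Hpd, 4-hydroxyphenylpyruvate dioxygenase, act in sequence on tyrosine, Tdo2 opens the breakdown of tryptophan, and Bckdhb is the beta subunit of the E1 component of the branched-chain ketoacid dehydrogenase. In liver, many of these genes are known to respond to glucocorticoids, glucagon and the supply of protein.

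Levels are log2 values of a probe's processed signal relative to the 75th percentile of its array, which lay between 420.7 and 639.5 intensity units. A log2 difference of 1 is a doubling. All 15 listed hepatocyte markers were kept. Of the markers of other cells, 4 of 7 for cholangiocytes, 6 of 9 for stellate cells and fibroblasts, 3 of 8 for endothelium and 4 of 11 for macrophages and leukocytes were kept, whereas Krt19, Col1a1, Pecam1, Ptprc and Csf1r were not well above background on all arrays of any group. In these bulk samples, fewer cells of a type and less RNA per cell cannot be told apart. An array of each of 4 groups stood apart from its group: DDMB replicate 2, VC_1 replicate 3, DDEB replicate 3 and VC_2 replicate 3. Over 7 measured proliferation markers, their mean levels were -0.79, -0.25, -0.15 and -0.36, each the highest of its group, and the other 14 arrays ran from -2.22 to -1.34. Each of the 4 also had the lowest mean of the hepatocyte markers in its group. Values without these arrays are given beside the results that moved with them. The headers show 4 slides. DDMB and VC_1 shared the first, VC_2 and DDEB replicates 1 and 2 the second, DDEB replicate 3 was on the third, and CDMB and CDEB were on the fourth. For CDMB and CDEB against VC_1, compound and slide cannot be told apart.

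With DDMB, 5 of the 10 genes rose and none fell. These were Ass1 of the urea cycle, Gls2 at the point where glutamine gives up ammonia, Tat and Hpd of tyrosine breakdown, and Bckdhb of branched-chain amino acid breakdown. The rises ran from 1.29-fold for Bckdhb to 1.61-fold for Tat. A gene was called at an adjusted p under 0.05 in limma (Benjamini-Hochberg over all genes of the comparison), and 0.556% of all genes were called in this comparison, 0.232% as higher. An unadjusted p under 0.05 was found for 6 of the 10, against 9.90% of all genes. The median log2 change was 0.38 over the 10 genes and 0.01 over all genes.

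Ass1, which joins citrulline and aspartate and is the third enzyme of the cycle, stood at 5.78, 5.93 and 6.15 on the DDMB arrays, against 5.31, 5.25 and 5.35 on the VC_1 arrays. Every DDMB array lay above every VC_1 array, by more than the spread within either group. The log2 change was 0.65 ± 0.09 (SE), or 1.57-fold, with limma's adjusted p = 0.00473 (n = 3 per group). Leaving out any single array of these groups left Ass1 called, with limma's adjusted p between 0.00223 and 0.0330.

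Tat, the first enzyme of tyrosine breakdown, stood at 2.71, 2.89 and 3.01 with DDMB, against 2.27, 2.27 and 2.01 in VC_1. The groups did not overlap, and VC_1 replicate 3 was the lowest of the 6 arrays. The log2 change was 0.68 ± 0.10 (SE; limma adjusted p = 0.00473), and without VC_1 replicate 3 it was 0.60 ± 0.10 (limma adjusted p = 0.0211). Hpd, further down the same pathway, stood at 6.19, 6.34 and 6.46 with DDMB, against 6.02, 5.91 and 5.89 in VC_1. The lowest DDMB array again lay above the highest VC_1 array, with DDMB replicate 1 the nearest to the controls. Its log2 change was 0.39 ± 0.07 (SE; limma adjusted p = 0.0206). Of the 5 calls this was the one most often lost. Limma's adjusted p was 0.0603 with the deposited tables, 0.0914 with no filter on dim probes and 0.127 with quantile normalization, where the log2 change was 0.32. It was 0.0787 without VC_1 replicate 3, 0.115 without VC_1 replicate 2, 0.0720 without DDMB replicate 2 and 0.129 without DDMB replicate 3.

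Gls2 stood at 3.79, 3.91 and 3.91 with DDMB, against 3.49, 3.48 and 3.48 in VC_1. The VC_1 arrays lay closer together than the DDMB arrays, and all DDMB arrays lay above them. The log2 change was 0.39 ± 0.06 (SE; limma adjusted p = 0.00712). Bckdhb stood at 3.79, 3.78 and 3.87 with DDMB, against 3.48, 3.41 and 3.45 in VC_1, again without overlap. Its log2 change was 0.37 ± 0.06 (SE; limma adjusted p = 0.00698). Without DDMB replicate 3 the limma adjusted p was 0.0528 for both Gls2 and Bckdhb, and without VC_1 replicate 2 it was 0.0537 for Bckdhb. The genes whose DDMB and VC_1 arrays did not overlap were these same 5 of 10, and a separation with DDMB higher held for 8.75% of all genes. In a fit of the 6 DDMB and VC_1 arrays alone, none of the 5 was called (limma adjusted p between 0.400 and 0.534).

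**Figure D1:**
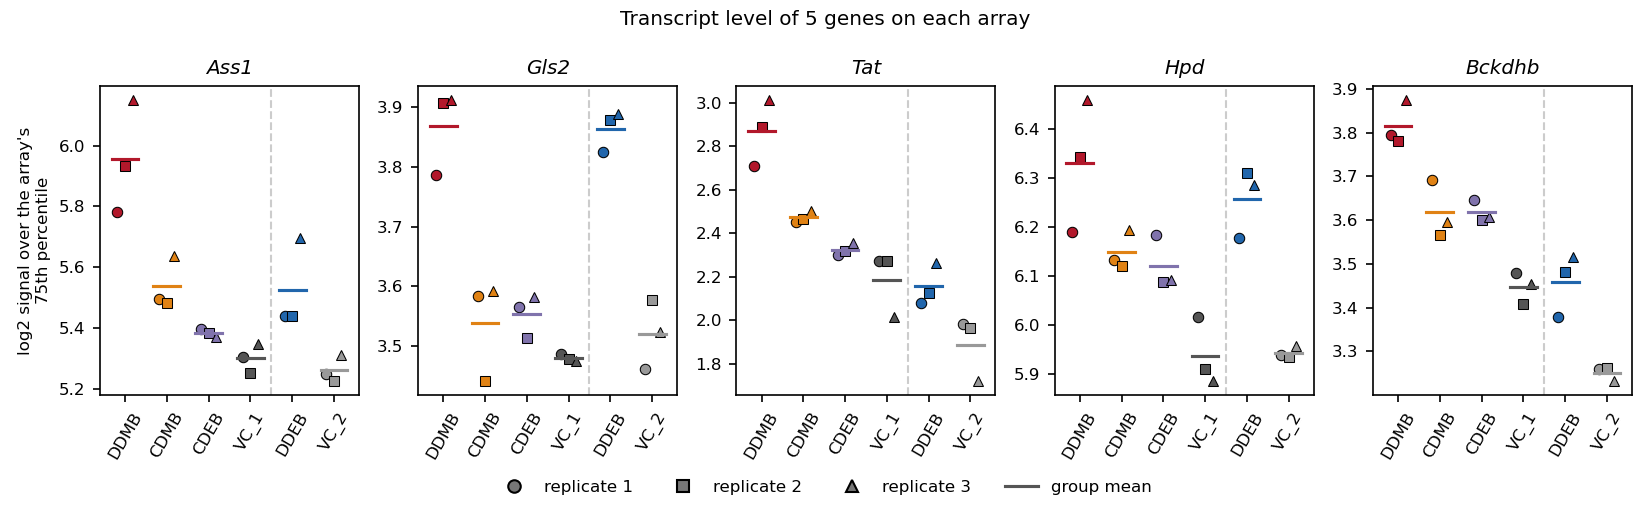
Level of the 5 genes called with DDMB on each array, as log2 signal over the 75th percentile of the array (vertical axis, a separate scale per gene), by group (horizontal axis); each point is 1 array, its shape gives the replicate number, and bars are group means. All DDMB points lie above all VC_1 points, and for Gls2 the DDEB points lie above all VC_2 points; the dashed line separates the chip lots.

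The promoters of 3 called genes and of Cps1, the most variable of the 10, are shown as the reference table gives them. RefSeq's table (build GRCr8) held 9 of the 10 genes, all but Arg1, with 250 bases before the listed start. The windows of Tat, Hpd, Bckdhb and Cps1 were printed because each ends at the annotated start of its gene. Motifs were searched on both strands, and matches are in capitals: CCAAT in Tat and Bckdhb, GGGCGG (the GC box) in Hpd and Bckdhb, TGTTCT (an arm of the glucocorticoid receptor element) in Bckdhb, and CAAAGTCCA (an HNF4 motif) in Cps1. A match on the other strand appears as the reverse complement.
Tat (chr19:54856354-54856603, + strand): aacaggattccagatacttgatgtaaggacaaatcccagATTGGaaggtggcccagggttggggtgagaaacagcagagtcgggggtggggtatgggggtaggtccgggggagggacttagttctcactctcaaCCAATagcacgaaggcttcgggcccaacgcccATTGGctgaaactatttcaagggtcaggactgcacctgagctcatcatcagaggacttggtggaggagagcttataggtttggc
Hpd (chr12:39041996-39042245, + strand): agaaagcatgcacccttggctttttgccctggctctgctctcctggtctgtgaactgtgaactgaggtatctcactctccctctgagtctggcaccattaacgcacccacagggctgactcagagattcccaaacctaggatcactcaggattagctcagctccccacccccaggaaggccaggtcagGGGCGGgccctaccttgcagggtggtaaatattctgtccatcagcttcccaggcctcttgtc
Bckdhb (chr8:93725027-93725276, + strand): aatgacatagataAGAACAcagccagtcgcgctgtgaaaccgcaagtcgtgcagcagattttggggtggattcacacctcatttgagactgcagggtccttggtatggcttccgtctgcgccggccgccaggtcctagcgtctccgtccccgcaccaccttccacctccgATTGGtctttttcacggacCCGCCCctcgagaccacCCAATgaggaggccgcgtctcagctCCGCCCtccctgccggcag
Cps1 (chr9:76063613-76063862, + strand): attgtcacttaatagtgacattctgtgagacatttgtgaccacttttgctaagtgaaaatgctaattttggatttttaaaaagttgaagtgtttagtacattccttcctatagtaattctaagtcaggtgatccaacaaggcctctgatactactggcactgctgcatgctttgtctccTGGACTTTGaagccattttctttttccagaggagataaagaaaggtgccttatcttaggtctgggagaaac

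The Tat window held CCAAT 3 times, at 84, 116 and 211 bases before the start, and the Bckdhb window held it 2 times. CCAAT was found in 4 of the 9 windows (Gls2, Tat, Tdo2 and Bckdhb) and in 34.3% of 27457 promoters of the same length. GGGCGG was found in 4 (Asl, Gls2, Hpd and Bckdhb) and in 32.4% of promoters. TGACG, which is part of the full cAMP response element TGACGTCA, occurred 2 times in Gls2 and in 19.0% of promoters. TGTTCT was found in Bckdhb and in 17.1% of promoters, TATAAA in Ass1 and Tdo2 and in 13.1% of promoters, and CAAAGTCCA in Cps1 and in 0.331% of promoters. TGACGTCA (1.70% of promoters) and TTGCNNAA, a C/EBP motif (9.20%), were in none of the 9 windows. The 5 genes that rose with DDMB had no motif of this search in common. A match is a description of letters, and the binding of a factor was not measured.

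With CDMB, no gene of the 10 was called by limma, against 0.0417% of all genes, and 5 had an unadjusted p under 0.05, against 13.2% of all genes. The arrays did not overlap for 6 of the 10, all higher with CDMB (Cps1, Ass1, Asl, Tat, Hpd and Bckdhb), against 13.5% of all genes in that direction. Tat stood at 2.45, 2.47 and 2.50 with CDMB, against 2.27, 2.27 and 2.01 in VC_1. The log2 change was 0.29 ± 0.10 (SE; limma adjusted p = 0.261), and 0.20 without VC_1 replicate 3. Ass1 stood at 5.50, 5.48 and 5.64 with CDMB, against 5.31, 5.25 and 5.35 in VC_1, with a log2 change of 0.24 ± 0.09 (SE; limma adjusted p = 0.308). Its arrays were separated by a gap smaller than the spread within CDMB. Hpd changed by 0.21 (limma adjusted p = 0.261) and Bckdhb by 0.17 (limma adjusted p = 0.256), both log2. Gls2, at 3.58, 3.44 and 3.59 with CDMB, overlapped the VC_1 values of 3.49, 3.48 and 3.48.

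With CDEB, no gene of the 10 was called either, against 0.111% of all genes, and Hpd and Bckdhb were the 2 with an unadjusted p under 0.05, against 13.3% of all genes. Ass1, Gls2, Tat, Hpd and Bckdhb lay higher with CDEB without overlap, 5 of 10 genes against 15.9% of all genes in that direction. For Bckdhb the CDEB arrays read 3.65, 3.60 and 3.61, against 3.48, 3.41 and 3.45 in VC_1. The log2 change was 0.17 ± 0.06 (SE; limma adjusted p = 0.233). For Ass1 the CDEB arrays read 5.40, 5.38 and 5.37, against 5.31, 5.25 and 5.35 in VC_1, so that the nearest arrays of the groups almost touched. The log2 change of Ass1 was 0.08, with a 95% interval from -0.11 to 0.28. For Tat it was 0.14, with an interval from -0.07 to 0.34, and 0.05 without VC_1 replicate 3. The median log2 change over the 10 genes was 0.24 with CDMB and 0.18 with CDEB, against 0.01 over all genes in both. Without VC_1 replicate 3, the medians of the 10 were 0.18 with CDMB and 0.07 with CDEB. With slide as a random block, limma's adjusted p was 1 for all 10 genes in both comparisons.

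With DDEB, Gls2 rose, the only gene of the 10 called by limma in this comparison, where 0.844% of all genes were called and 0.593% were called higher. Gls2 stood at 3.82, 3.88 and 3.89 with DDEB, against 3.46, 3.58 and 3.52 in VC_2. The groups were separated by more than the whole range of VC_2. The log2 change was 0.34 ± 0.06 (SE), or 1.27-fold, with limma's adjusted p = 0.0165 (n = 3 per group). Within the slide that held VC_2 and DDEB replicates 1 and 2, it was 0.33 ± 0.06 (SE; limma adjusted p = 0.0263). The call was lost without DDEB replicate 2 (limma adjusted p = 0.0610), without VC_2 replicate 1 (0.0768) and without VC_2 replicate 3 (0.0553). It was also lost in a fit of the DDEB and VC_2 arrays alone (limma adjusted p = 0.574) and with the deposited tables (0.593). With another background correction, normexp on the median signals, limma's adjusted p was 0.0584.

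Hpd stood at 6.18, 6.31 and 6.29 with DDEB, against 5.94, 5.93 and 5.96 in VC_2. The arrays did not overlap, and the log2 change of 0.31 ± 0.07 (SE) had a limma adjusted p of 0.0517. Bckdhb stood at 3.38, 3.48 and 3.52 with DDEB, against 3.26, 3.26 and 3.23 in VC_2, with a log2 change of 0.21 ± 0.06 (SE; limma adjusted p = 0.108). Tat stood at 2.08, 2.12 and 2.26 with DDEB, against 1.98, 1.96 and 1.72 in VC_2, with a log2 change of 0.27 ± 0.10 (SE; limma adjusted p = 0.203), and 0.13 without the 4 arrays. For both, the DDEB arrays lay above the VC_2 arrays, and for Tat VC_2 replicate 3 was the lowest. Ass1 stood at 5.44, 5.44 and 5.70 with DDEB, against 5.25, 5.23 and 5.31 in VC_2, with a log2 change of 0.26 (limma adjusted p = 0.192). The genes without overlap were 5 of 10, all higher with DDEB, against 10.1% of all genes in that direction. An unadjusted p under 0.05 was found for 5 of the 10, against 15.1% of all genes. The median log2 change was 0.21 over the 10 genes and 0.01 over all genes. For the 10 genes it was 0.13 without VC_2 replicate 3 and 0.11 without the 4 arrays, with 6 of 10 changes positive in both.

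**Figure D2:**
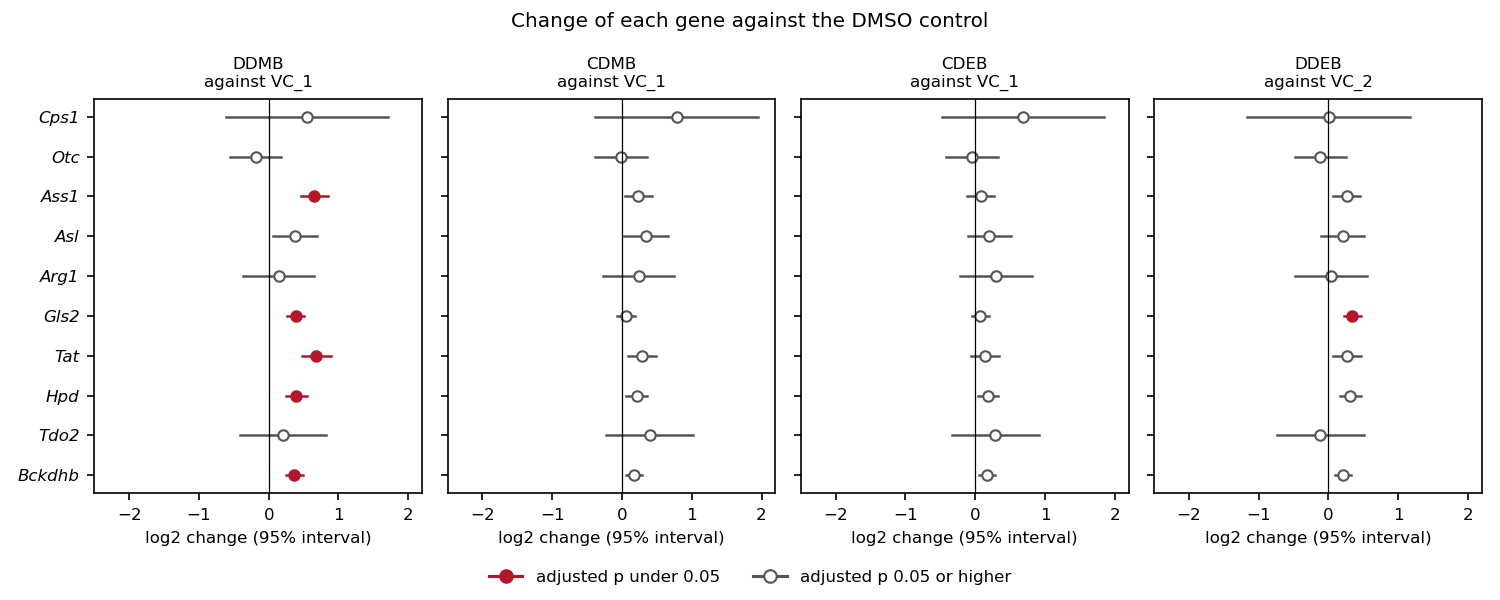
Log2 change of each of the 10 genes (rows) against its DMSO control, 1 panel per compound, with 95% intervals from limma; filled points passed an adjusted p of 0.05. With DDMB 5 points are filled and with DDEB only Gls2, and the intervals of Cps1, Tdo2 and Arg1 are the widest in every panel.

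The other 5 genes were called with no compound by limma. Cps1, the entry enzyme of the cycle, stood at 4.02, 2.66 and 3.59 with DDMB, 3.79, 3.53 and 3.66 with CDMB, 3.70, 3.52 and 3.47 with CDEB, and 3.48, 3.39 and 1.75 in VC_1. On the other lot it stood at 3.55, 3.27 and 2.10 with DDEB, against 3.61, 3.49 and 1.81 in VC_2. The 4 low values are those of the arrays that stood apart, and the remaining 14 lie between 3.27 and 4.02. Its SD within groups, 0.71 log2 units, was above that of 97.6% of all genes, whereas that of Gls2 (0.05) was above 2.53% and that of Bckdhb (0.05) above 1.38%. The log2 change of Cps1 with CDMB was 0.78, with a 95% interval from -0.38 to 1.95, and 0.22 without VC_1 replicate 3. With DDMB it was 0.55 over all arrays, -0.02 without VC_1 replicate 3 and 0.37 without all 4 arrays.

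Tdo2, which makes N-formylkynurenine from tryptophan, stood at 6.49, 5.76 and 6.23 with DDMB, 6.50, 6.24 and 6.32 with CDMB, 6.27, 6.20 and 6.27 with CDEB, and 6.32, 6.21 and 5.33 in VC_1. On the other lot it stood at 6.00, 5.95 and 5.44 with DDEB, against 6.31, 6.15 and 5.28 in VC_2. The lowest array of each of DDMB, VC_1, DDEB and VC_2 was again the one that stood apart. Its log2 change with CDMB was 0.40, with a 95% interval from -0.22 to 1.02, and 0.09 without VC_1 replicate 3. Without the 4 arrays, the change with DDEB was -0.25 ± 0.11 (SE; limma adjusted p = 0.249), against -0.11 over all arrays.

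Arg1, which releases urea, stood at 7.85, 7.36 and 7.74 with DDMB, 7.83, 7.71 and 7.70 with CDMB, 7.86, 7.76 and 7.79 with CDEB, and 7.77, 7.70 and 7.06 in VC_1. With DDEB it stood at 7.92, 7.88 and 7.30, against 8.00, 7.89 and 7.11 in VC_2. Without the 4 arrays its log2 changes were 0.06 with DDMB, 0.01 with CDMB, 0.07 with CDEB and -0.04 with DDEB. The groups then lay close together, and limma's adjusted p was 0.671 or higher. Asl, which splits argininosuccinate into arginine and fumarate, stood at 6.75, 6.19 and 6.48 with DDMB, 6.50, 6.42 and 6.40 with CDMB, 6.37, 6.30 and 6.23 with CDEB, and 6.31, 6.15 and 5.84 in VC_1. With DDEB it stood at 6.38, 6.26 and 6.29, against 6.31, 6.15 and 5.86 in VC_2. Its log2 change with DDMB was 0.38 ± 0.15 (SE; limma adjusted p = 0.367), and 0.39 ± 0.10 without the 4 arrays (limma adjusted p = 0.0904). The DDMB and VC_1 arrays of Asl overlapped through DDMB replicate 2. Without VC_1 replicate 3, the log2 change of Asl was 0.25 with DDMB, 0.21 with CDMB (0.34 over all arrays) and 0.07 with CDEB (0.20 over all arrays). With DDEB it was 0.09 without the 4 arrays, against 0.20 over all arrays.

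Otc, the second enzyme of the cycle, ran the other way on the arrays that stood apart. It stood at 0.47, 1.25 and 0.91 with DDMB, 1.28, 0.88 and 0.97 with CDMB, 1.04, 1.08 and 0.92 with CDEB, and 1.08, 0.93 and 1.17 in VC_1. With DDEB it stood at 0.43, 0.77 and 0.88, against 0.72, 0.76 and 0.96 in VC_2. Each of the 4 arrays was the highest of its group. The log2 change with DDMB was -0.19, with a 95% interval from -0.55 to 0.18, and those with the other compounds lay between -0.12 and -0.01. It was -0.32 with DDMB without the 4 arrays, and the changes with CDMB and CDEB turned to 0.04 and 0.01.

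**Figure D3:**
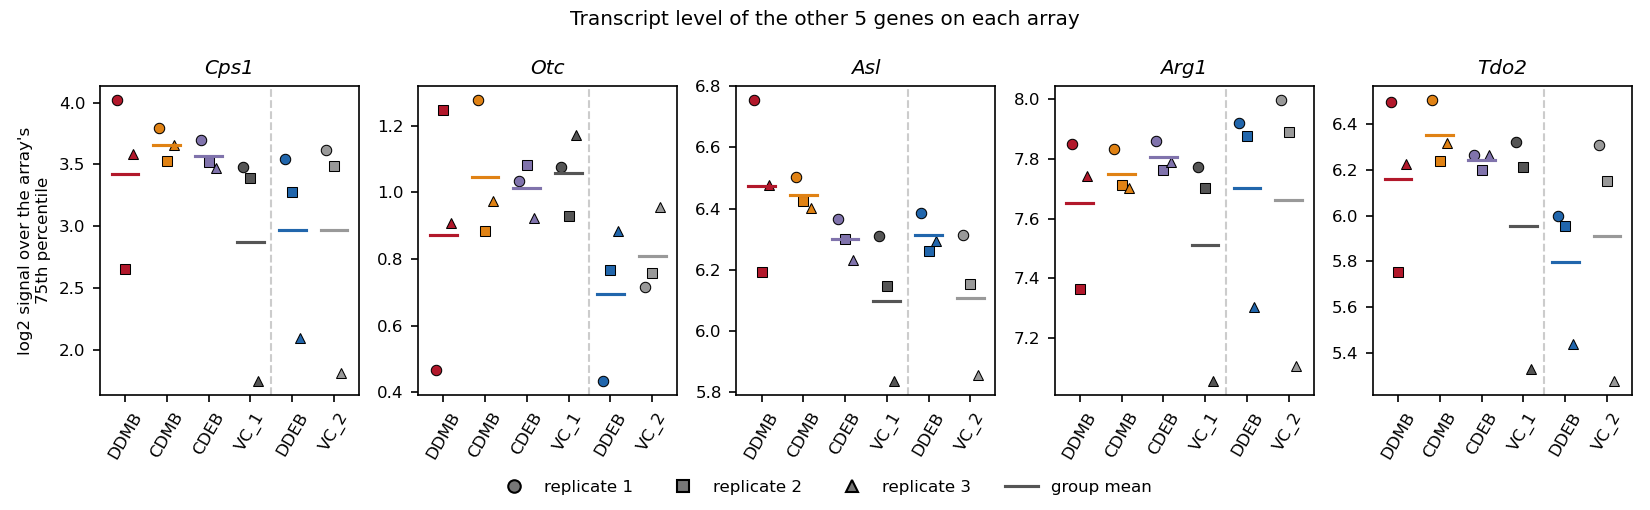
Level of the 5 genes called with no compound on each array, as log2 signal over the 75th percentile of the array (vertical axis, a separate scale per gene), by group (horizontal axis); each point is 1 array, its shape gives the replicate number, and bars are group means. Cps1, Arg1 and Tdo2 are low on DDMB replicate 2, VC_1 replicate 3, DDEB replicate 3 and VC_2 replicate 3, and Otc is high on the same arrays.

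The marker lists moved with these arrays as follows, and their part in the levels of Cps1, Tdo2, Arg1, Asl and Otc was not tested. The log2 summed level of the 7 proliferation markers ran from 2.12 to 2.72 with DDMB, from 2.07 to 2.25 with CDMB, from 2.11 to 2.16 with CDEB and from 2.33 to 3.17 in VC_1, and from 2.13 to 3.29 with DDEB, against 2.32 to 3.11 in VC_2. Of the 10 markers listed, Aurkb was not kept, and Top2a and Mcm5 were not matched to a probe. That of the 15 hepatocyte markers ran from 11.7 to 12.1 with DDMB and from 12.1 to 12.2 with both CDMB and CDEB. It ran from 11.7 to 12.1 in VC_1, and from 12.3 to 12.4 with DDEB, against 12.0 to 12.4 in VC_2. On DDEB replicate 3 this summed level (12.311) was not the lowest of its group, against 12.301 on DDEB replicate 2. The log2 summed level of the 4 macrophage and leukocyte markers ran from 1.74 to 3.06 with DDMB and from 3.08 to 3.20 with CDMB. It ran from 2.95 to 3.03 with CDEB and from 1.76 to 3.05 in VC_1. With DDEB it ran from 2.06 to 2.98, against 1.87 to 3.20 in VC_2. Both this summed level and the mean log2 level of these markers were lowest of their group on each of the 4 arrays. The log2 summed level of the 4 cholangiocyte markers ran from 1.65 to 2.36 with DDMB, from 1.68 to 1.74 with CDMB, from 1.68 to 1.73 with CDEB and from 1.81 to 2.40 in VC_1, and from 1.91 to 2.33 with DDEB, against 1.77 to 2.32 in VC_2. This summed level was highest of its group on each of the 4 arrays, and the CDMB and CDEB arrays lay wholly below the VC_1 arrays. Of the 4 arrays, only VC_2 replicate 3 had the highest mean log2 level of these markers in its group. On DDEB replicate 3 that mean was the lowest, at -1.94, against -1.54 and -1.55 on replicates 1 and 2. The log2 summed level of the 6 stellate cell and fibroblast markers ran from 0.13 to 0.74 with DDMB and from -0.09 to -0.01 with CDMB. It ran from 0.15 to 0.37 with CDEB and from 0.01 to 0.74 in VC_1, and from 0.27 to 0.78 with DDEB, against 0.23 to 0.87 in VC_2. It too was highest of its group on each of the 4 arrays. The mean log2 level of these markers on DDEB replicate 3 (-2.60) lay below that on DDEB replicate 2 (-2.13). The log2 summed level of the 3 endothelial markers ran from 3.05 to 3.23 with DDMB and from 3.22 to 3.25 with CDMB. It ran from 3.37 to 3.52 with CDEB and from 3.05 to 3.31 in VC_1. With DDEB it ran from 2.79 to 3.45, against 3.23 to 3.46 in VC_2. It was lowest of its group on each of the 4 arrays, and the CDEB arrays lay wholly above the VC_1 arrays. Their mean log2 level was lowest on VC_1 replicate 3 and DDEB replicate 3 only. With all arrays, no gene of the 6 marker lists was called with any compound. Sox9 of the cholangiocyte list and Cdh5 of the endothelial list were called with DDEB once the 4 arrays were left out. Over all genes, 333 of 21574 were called with DDEB in that setting.

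Without the 4 arrays, the rises of Ass1, Gls2, Tat and Bckdhb with DDMB were still called. Their log2 changes were 0.69 for Ass1, 0.37 for Gls2, 0.59 for Tat and 0.39 for Bckdhb (limma adjusted p between 0.0119 and 0.0369). Hpd was not (0.36, limma adjusted p = 0.0710), nor was Gls2 with DDEB (0.33, limma adjusted p = 0.0520). This setting was chosen after seeing the data. In it, 389 of all 21574 genes were called with DDMB, against 120 with all arrays. With DDEB, 333 were called, against 182 with all arrays.

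**Figure D4:**
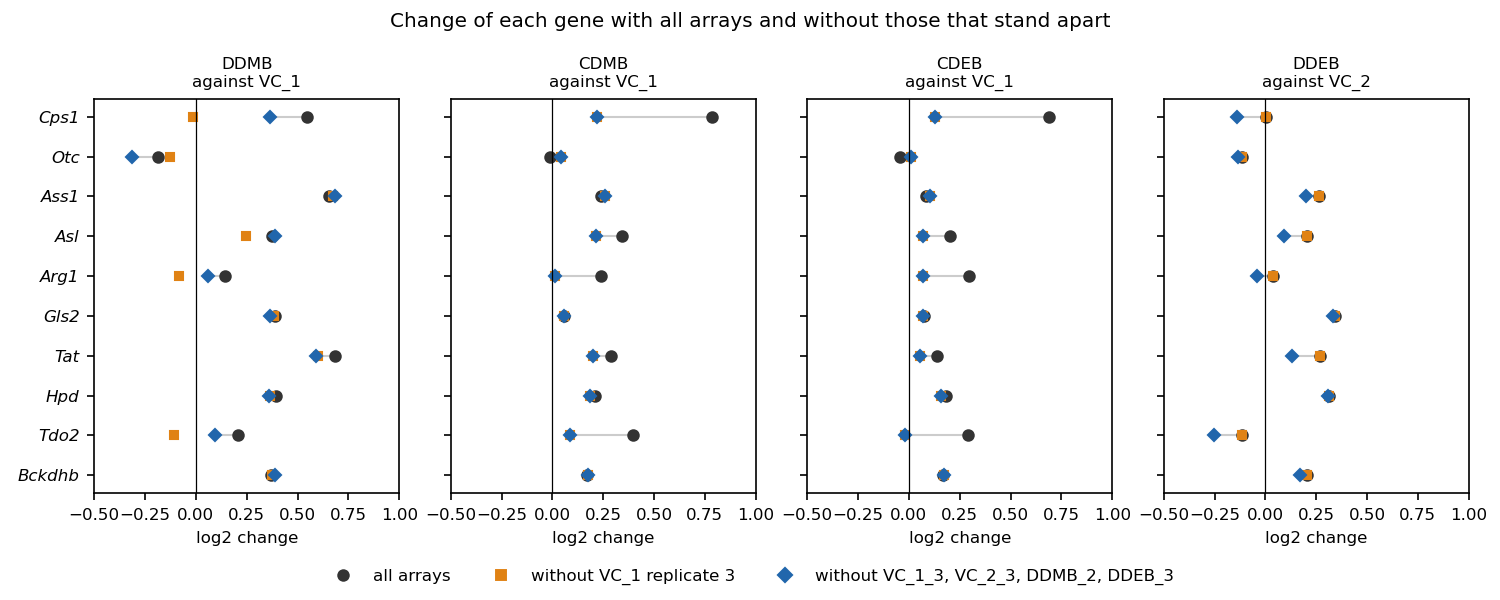
Log2 change of each of the 10 genes (rows) against its DMSO control with all arrays (circles), without VC_1 replicate 3 (squares) and without the 4 arrays that stood apart (diamonds), 1 panel per compound. The points of Ass1, Gls2, Hpd and Bckdhb lie close together in each panel, whereas those of Cps1, Tdo2 and Arg1 move towards 0 with CDMB and CDEB once VC_1 replicate 3 is left out.

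The compounds were compared at the same dose and time in 6 pairs, with DDEB entering as its change over VC_2 minus the other compound's change over VC_1. DDMB against CDEB gave 3 calls by limma, all higher with DDMB, against 3.27% of all genes called and 1.58% called higher: Ass1 was higher with DDMB by 0.57 ± 0.09 (log2 ± SE; limma adjusted p = 0.00697), Tat by 0.55 ± 0.10 (0.0105) and Gls2 by 0.31 ± 0.06 (0.0151). DDMB against CDMB gave 1 call, against 0.677% of all genes called and 0.278% called higher: Gls2 was higher with DDMB by 0.33 ± 0.06 (log2 ± SE; limma adjusted p = 0.0209). Ass1 (0.42, limma adjusted p = 0.0524) and Tat (0.40, limma adjusted p = 0.0712) lay higher with DDMB without overlap of the arrays and did not pass. Both passed without the 4 arrays, a setting chosen after seeing the data, with limma adjusted p = 0.0431 for Ass1 and 0.0309 for Tat. In all, 4 of the 10 genes were higher with DDMB without overlap, against 14.9% of all genes. Both comparisons set 1 slide against another. With slide as a random block no gene of the 10 was called in either, at limma's adjusted p = 1. Among single arrays, the call of Gls2 against CDMB was lost without CDMB replicate 2 (limma adjusted p = 0.108), CDMB replicate 3 (0.0584), DDMB replicate 2 (0.103) or DDMB replicate 3 (0.119). Against CDEB, Gls2 was lost without DDMB replicate 2 or 3 or any CDEB array (limma adjusted p between 0.0514 and 0.0779), and Tat without CDEB replicate 2 (0.0539) or DDMB replicate 3 (0.0556).

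CDEB against CDMB, which lay on 1 slide, gave 0 calls by limma among the 10 genes and 0% over all genes, and 0 of the 10 had an unadjusted p under 0.05, against 4.71% of all genes. Tat differed by -0.15, with a 95% interval from -0.35 to 0.06, and Ass1 by -0.16, with an interval from -0.35 to 0.04. Gls2 differed by 0.01, with an interval from -0.11 to 0.14. The interval for Bckdhb ran from -0.12 to 0.12.

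The change with DDEB minus that with DDMB gave 0 calls by limma among the 10 genes and 0% over all genes, and 2 of the 10 had an unadjusted p under 0.05, against 5.78% of all genes. These were Ass1, at -0.39 with a 95% interval from -0.67 to -0.12 (limma adjusted p = 0.678), and Tat, at -0.42 with an interval from -0.71 to -0.13 (limma adjusted p = 0.678). For Gls2 the difference was -0.04, with an interval from -0.22 to 0.13. The change with DDEB minus that with CDMB gave 0 calls and 0% over all genes, and minus that with CDEB 0 calls among the 10 and 0.00464% over all genes. Gls2 was in both the 1 gene of the 10 with an unadjusted p under 0.05, against 5.82% of all genes for DDEB minus CDMB and 6.61% for DDEB minus CDEB. It differed by 0.28, with an interval from 0.11 to 0.46, for DDEB minus CDMB (limma adjusted p = 0.699), and by 0.27, with an interval from 0.09 to 0.45, for DDEB minus CDEB (limma adjusted p = 0.585). The VC_1 group enters the changes of DDMB, CDMB and CDEB alike. The labels do not say whether VC_1 and VC_2 arrays of the same number came from the same cultures, and their deviations from the group means correlated over all genes (r between 0.468 and 0.808). The intervals of the DDEB differences take VC_1 and VC_2 as independent.

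**Figure D5:**
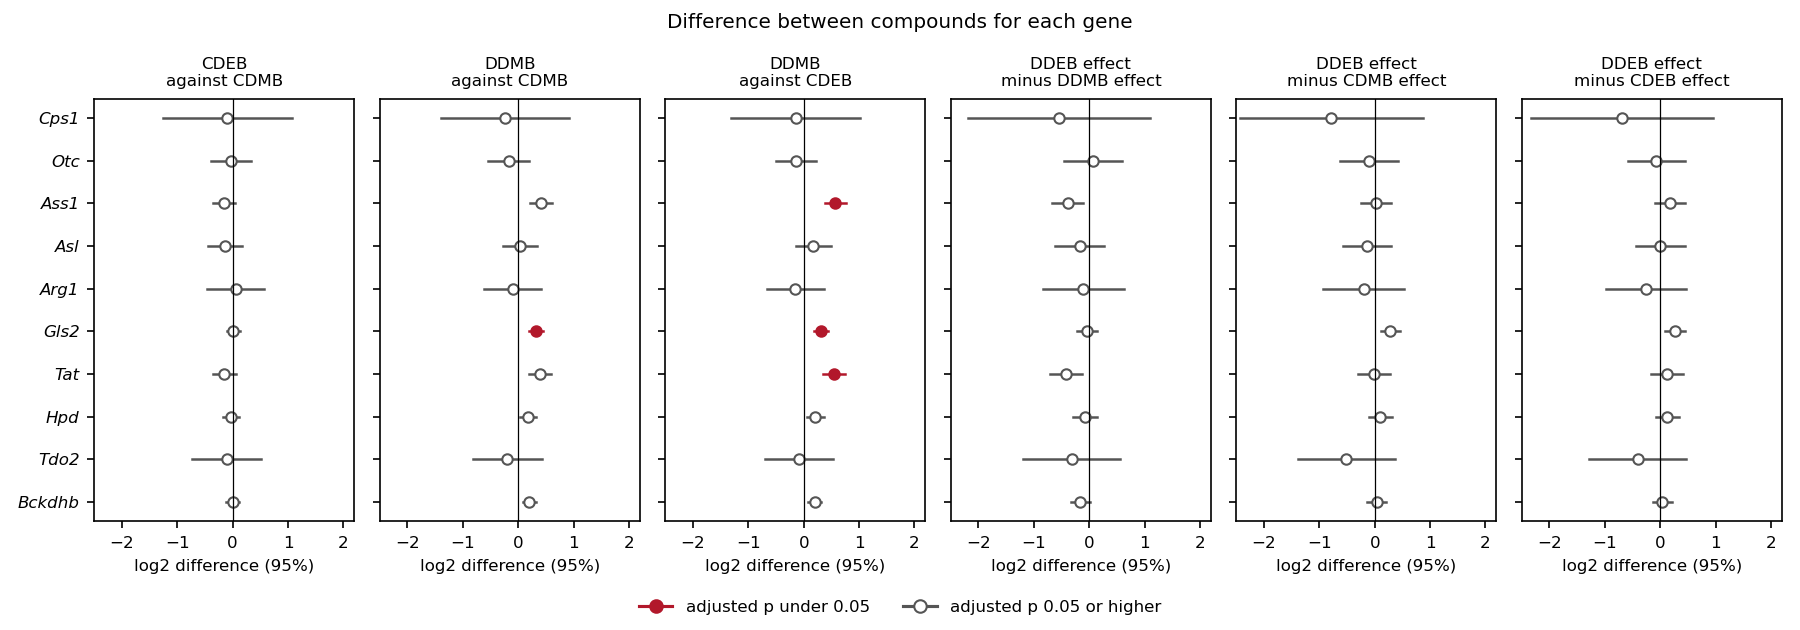
Log2 difference of each of the 10 genes (rows) between compounds, 1 panel per pair, with 95% intervals from limma; filled points passed an adjusted p of 0.05. Ass1, Gls2 and Tat are filled for DDMB against CDEB and Gls2 for DDMB against CDMB, and no point is filled in the other 4 panels.

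A wider list of 100 genes of amino acid metabolism, which includes the 10, had 91 measured. With DDMB, 5 rose and none fell, and these were the 5 genes already described. With all arrays, none of the 81 measured genes outside the 10 was called, and their median log2 change was 0.05, against 0.01 over all genes. Without VC_1 replicate 3 this median turned to -0.01 and 1 of the 81 genes was called, Kynu, the kynureninase gene of tryptophan breakdown. Kynu stood at 3.02, 3.14 and 3.14 with DDMB, against 3.50, 3.50 and 3.26 in VC_1, where replicate 3 was the lowest. Its log2 change was -0.32 ± 0.07 over all arrays (SE; limma adjusted p = 0.0819) and -0.40 ± 0.07 without VC_1 replicate 3 (SE; limma adjusted p = 0.0280). Without the 4 arrays, 2 of the 81 were called, Kynu and the cysteine sulfinate decarboxylase gene Csad, both lower with DDMB. Over all genes, 389 of 21574 were called with DDMB in that setting. Csad stood at -0.91, -2.05 and -1.30 with DDMB, against -0.17, -0.41 and -1.56 in VC_1, so the groups overlapped through VC_1 replicate 3. Its log2 change was -0.70 ± 0.56 over all arrays (SE; limma adjusted p = 0.774) and -0.81 ± 0.14 without the 4 arrays (SE; limma adjusted p = 0.0281). The amino acid transporter gene Slc7a5, also of the 81, showed -0.86 ± 0.19 over all arrays (log2 ± SE; limma adjusted p = 0.0679) and was not called. It stood at -4.18, -4.40 and -4.25 with DDMB, against -3.24, -3.54 and -3.48 in VC_1, without overlap. These levels were low, and a probe was kept if well above background in any single group. Of the 9 genes of phenylalanine and tyrosine breakdown, Tat and Hpd rose with DDMB, 7 had a positive change, and the list's median was 0.10, or 0.07 without VC_1 replicate 3. Of the 18 measured genes of branched-chain amino acid breakdown, Bckdhb rose, 14 had a positive change, and the median was 0.11. The median of the 8 sulfur amino acid genes was -0.11, with 2 positive and 0 called by limma, and -0.27 without VC_1 replicate 3. Of the 7 measured urea cycle genes, Ass1 rose and 6 had a positive change. Their median was 0.22, and it turned to -0.07 without VC_1 replicate 3.

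With CDMB and CDEB, 0 of the 91 genes were called by limma, with medians of 0.10 and 0.11. Without VC_1 replicate 3 these medians were 0.06 with CDMB and 0.05 with CDEB, again with 0 called by limma. The lowest limma adjusted p among the genes named from these lists was that of Aadat, kynurenine aminotransferase, at 0.48 ± 0.11 with CDEB (log2 ± SE; adjusted p = 0.115). With DDEB, 2 of 91 rose: Gls2 and Ppm1k, the mitochondrial phosphatase that activates the branched-chain ketoacid dehydrogenase. Ppm1k stood at -0.32, -0.28 and -0.38 with DDEB, against -0.71, -0.72 and -0.70 in VC_2. The groups did not overlap, and the log2 change was 0.38 ± 0.08 (SE; limma adjusted p = 0.0476). Leaving out single arrays of the 2 groups gave limma adjusted p-values between 0.0443 and 0.141, with the call kept only without DDEB replicate 3. Without VC_1 replicate 3, which shares the estimate of spread, it was 0.0504, and the call was lost under 13 of 18 alternatives. Kynu stood at 3.02, 3.08 and 2.94 with DDEB, against 3.29, 3.29 and 3.16 in VC_2, without overlap. Its log2 change with DDEB was -0.23 ± 0.07 (SE; limma adjusted p = 0.160), and it was not called.

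Of 10 measured glucocorticoid receptor targets, Tat was the only one called with DDMB, and the list's median log2 change was 0.11 with all arrays and -0.10 without VC_1 replicate 3. With CDMB and CDEB none was called by limma, and all 10 changes were positive. The medians were 0.32 with CDMB and 0.23 with CDEB, or 0.15 and 0.07 without VC_1 replicate 3. One-sided changes were not particular to this list. All 15 hepatocyte markers were also positive with both compounds, with medians of 0.16 with CDMB and 0.21 with CDEB. Without VC_1 replicate 3 these were 0.03 and 0.10. The 7 measured proliferation markers had 0 positive changes with either compound. With DDEB no glucocorticoid receptor target was called by limma, 4 of the 10 changes were positive and the median was -0.02. The largest change of the list with DDEB was that of Tsc22d3, a classical target of the receptor, at -0.47 ± 0.14 (log2 ± SE; limma adjusted p = 0.148). Of 13 measured regulators of amino acid enzymes none was called with any compound. The gene of the coactivator Ppargc1a showed -0.43 with DDMB (limma adjusted p = 0.825) and 0.43 with DDEB (limma adjusted p = 0.652), each with an SE of 0.40.

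For each gene called with DDMB or DDEB, the profile most like its own over the 18 arrays was sought among 9900 genes with a symbol, by the root-mean-square difference of log2 levels centred on each gene's mean. Ass1 was nearest to Pnpla2, the adipose triglyceride lipase gene (0.10 log2 units, against an SD of 0.25 for Ass1 over the arrays), and then to Psmd13 (0.11). Gls2 was nearest to Snx10 and Rhpn2 (0.08 each, SD 0.17), Tat to Uhmk1 and Ip6k2 (0.14 each, SD 0.33), Hpd to Gsr (0.07) and Pold4 (0.08; SD 0.16), and Bckdhb to Lactb2 and Hook3 (0.06 each, SD 0.19). No other gene of the 10 was among these nearest profiles.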

How the data were processed

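The scanner files hold 1 one-colour Cy3 array each, with 62976 spots. Per the file headers, the intensity of a spot comes from Agilent Feature Extraction (version 10.7.1.1), with rn4 as the build. The authors' deposited tables give linear signal separately for the 2 chip lots. How they were scaled is not stated in these sources, and they served as an alternative. Deposited intensities were converted to log2, averaged over unflagged spots of a probe and set relative to the 75th percentile of the array over probes. Probes were named through their accession (21109 of 45598, reference table GRCr8). Probes well above background on all 3 arrays of a group were kept (25306), and the brightest stood for a gene, giving 21574 genes. limma 3.58.1 (R 4.3.3) fitted 1 mean per group to the 18 arrays, with 12 residual degrees of freedom. Each comparison had its own Benjamini-Hochberg adjustment over all genes, and a gene was called below 0.05. The fit was tested on simulated data. The number of arrays limits the precision.

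The 10 genes, the wider lists and the tests were chosen with earlier results of these data known, so no count of them is independent evidence. Named beyond the 10 are called genes of the wider lists or, where none was called, the gene with the largest change, and the 2 nearest profiles of each called gene. Ppm1k, Slc7a5, Aadat and Csad fall under that rule, as do Tsc22d3 and Ppargc1a. Kynu falls under it with DDEB only. Sox9, Cdh5 and Kynu with DDMB were named after their values were seen, as were the calls of Csad and Kynu without arrays. The alternatives were another background correction, other scalings, no filter, the groups compared alone, slide and replicate number as blocks, all probes of a gene, the deposited tables and leaving out arrays. The replicate numbers were checked for pairing through the correlation of same-numbered deviations from group means, which ran from -0.421 to 0.808 over 45 pairs of arrays, so the main fit has no block.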

Additional observations from a re-analysis of the deposited data

How the results depend on the processing

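No log2 change of the 10 genes that was called changed sign under an alternative. With DDMB against VC_1 (5 genes called), the fit of the compared groups alone called 0, and leaving out 1 array gave 2 to 5. With DDEB against VC_2 (1 called), the deposited tables, normexp on the median signals, the compared groups alone and leaving out the 4 arrays that stood apart each called 0, and leaving out 1 array gave 0 to 1. With DDMB against CDEB (3 called), normexp called 5, the compared groups alone 0, slide as a random block 0, and leaving out 1 array 1 to 4. With DDMB against CDMB (1 called), the 75th percentile over spots called 2, no filter 0, normexp 0, the compared groups alone 0, slide as a random block 0, leaving out the 4 arrays 3, and leaving out 1 array 0 to 3. The cause was not tested. The other 6 comparisons called 0 of the 10 genes under every alternative run. The 75th percentile over spots, normexp on the median signals and the 4-array setting were chosen after seeing the data, and normexp on mean signals was not run. With replicate number as a block, 2 genes were called with DDEB against VC_2 (Gls2 and Hpd, Hpd at limma's adjusted p = 0.0448 in place of 0.0517) and 2 with DDMB against CDMB, in place of 1 each. Same-numbered arrays of VC_1 and VC_2 deviated together (correlations 0.634, 0.468 and 0.808), as did those of DDEB and VC_1 (0.476, 0.118 and 0.526). Those of DDEB and VC_2 (0.431, 0.096 and 0.490) fell just short of 0.1 in 1 pair, and those of DDMB and VC_1 differed in sign (0.557, -0.421 and 0.092), so the numbers were not taken to pair the samples of either comparison. Under the block, none of the 10 genes was called in the 3 differences between DDEB and another compound (limma adjusted p of 0.353 or higher). Over all genes, the calls numbered 120 with DDMB (39 to 204 without 1 array), 9 with CDMB (0 to 6), 24 with CDEB (0 to 9) and 182 with DDEB (48 to 353). In the order DDMB, CDMB, CDEB and DDEB, normexp called 65, 2, 8 and 72, the compared groups alone 0 in each, and leaving out the 4 arrays 389, 39, 76 and 333. No filter called 52 with DDMB, 0 with CDMB and 6 with CDEB. The replicate block called 16 with CDMB, 38 with CDEB and 421 with DDEB. Slide as a random block called 193 with DDMB and 0 with CDMB and CDEB, and as a fixed block 254 with DDMB and 353 with DDEB. The deposited tables called 1 with CDMB, 8 with CDEB and 0 with DDEB, and quantile normalization 325 with DDEB. Of the wider amino acid list with DDEB (2 called), 1 was called with the 75th percentile over spots, the mean of all probes or no filter, and 0 with normexp, the deposited tables, the compared groups alone or without the 4 arrays. The differences between DDEB and other compounds were not fitted from the deposited tables, because the table of each chip lot was fitted separately. All 10 probes lay well above background on every array, so dimness limited none of them.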
